A study of Drosophila melanogaster with 12 samples.

Results

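Open chromatin regions that appeared in the table labelled gut alone, and that lay away from the ends of genes, numbered 871 of the 2906 regions of that table (30.0%). They were read in adult female Drosophila melanogaster by ATAC-seq, an assay that cuts and tags accessible DNA with the Tn5 transposase. A region was chosen if it lay on the euchromatic part of arm 2L, 2R, 3L, 3R or X, shared no base with any of the 3447 regions of the table labelled fat body, and had its midpoint more than 500 bp from both ends of every Release 6 protein-coding gene. The choice therefore used position and presence in the tables. It did not use the difference between groups of flies. The same 2049 euchromatic regions of the table labelled gut also held 895 regions found there alone but at gene ends, and 283 that overlapped the table labelled fat body.

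The libraries labelled gut came from 3 switched and 3 control samples of flies that all carried the S106 driver and UAS-foxo. All flies were mated for 48 h and fed 10% yeast and 5% sucrose. Switched flies had food with 200 µM RU486 for 21 days, followed by 7 days without it, and control flies are labelled as RU486 negative. S106 is a hormone-inducible driver, so RU486 turns on foxo, which encodes the forkhead factor held back by insulin signalling. All groups carried UAS-foxo and no group ate RU486 without it, so an effect of the drug cannot be told apart from that of foxo induction. The labels do not say whether the replicates were separate dissections, and p-values then measure only the spread between these samples.

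Accessible DNA within or between genes is where enhancers and silencers bind transcription factors, and it also includes internal promoters of long genes and structural elements. In the intestine and fat body of flies such elements are known to serve nuclear receptors, GATA factors and FOXO. The tables give no transcript starts, exons or chromatin marks, so the regions described here are accessible sites and not enhancers by any measurement.

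The libraries differed in depth and composition before any member was considered. Total counts ranged from 99191 to 709659 in switched and from 111244 to 654180 in control libraries, with the replicate 1 library lowest in each group. Mitochondrial regions took 77.7% to 87.6% of switched and 69.2% to 84.9% of control counts. Scaffold and Y regions took 28.7% of nuclear counts in switched replicate 1 and 30.8% in control replicate 1, against 3.76% to 6.32% in the other 4 libraries. A single region outside the euchromatic part of 2R (5049531 to 5051294) took 30.8% of arm counts in control replicate 3, against 10.6% to 13.2% in switched libraries and 5.13% and 5.75% in the other control libraries. Markers of gut enterocytes and regional identity went against the label. Of 15 such genes, among them GATAe, Ptx1 and alphaTry, 0 had any region of this table within the gene or 500 bp of it, and 4 did in the table labelled fat body. Markers of intestinal stem and enteroendocrine cells did not differ: of 14 such genes, Sox100B and ttk did in both tables. Of 11 fat body markers, Yp1, Yp3, Lsp1beta and srp did in the table labelled gut, against Lsp1beta and Lsp2 in the table labelled fat body. Of 8 Malpighian tubule markers, 3 did in the table labelled gut and 1 in the table labelled fat body. Of 21 genes of lipid storage and synthesis, a list not drawn up as markers, 14 did against 2. Whether the tissue labels of the tables are exchanged cannot be told from the labels, and the libraries are called labelled gut for that reason.

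Members lay mostly inside genes. The midpoint of 723 members (83.0%) fell within the span of a protein-coding gene, and 148 fell between genes. The same criterion of more than 500 bp from every gene end left 93.96 Mb of the euchromatic arms, of which 71.3% lies inside genes. Of the members between genes, 38 were within 1000 bp of one and 53 more than 5000 bp away, with a median gap of 2825 bp. An annotated end of a non-coding gene lay within 500 bp of 129 members (14.8%), and 64 of the 148 members between genes had such an end nearby or lay in a non-coding gene. Part of the set thus sits at ends of genes that the choice of members did not consider.

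Transfer RNA genes were the most frequent of these. They are short genes read by RNA polymerase III from promoters inside the gene, and many have near-identical copies between which reads may have been split. An end of a tRNA gene lay within 500 bp of 64 members (7.35%), although such positions make up 0.195% of the sequence open to members, and the midpoint of 33 of them was inside the tRNA gene. The share was 2.46% at regions found in this table alone at gene ends and 1.06% at regions shared with the table labelled fat body. The tRNA members were singled out after their values were seen, and 38 of them lay within a protein-coding gene. Their summed level was 1736, 6425 and 4281 CPM in switched and 2957, 4389 and 5308 CPM in control libraries, so the groups overlapped. Of 48 tested, 20 had a log2 fold change above 0 and 28 below, 0 were called, and the median was -0.21.

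**Figure D1:**
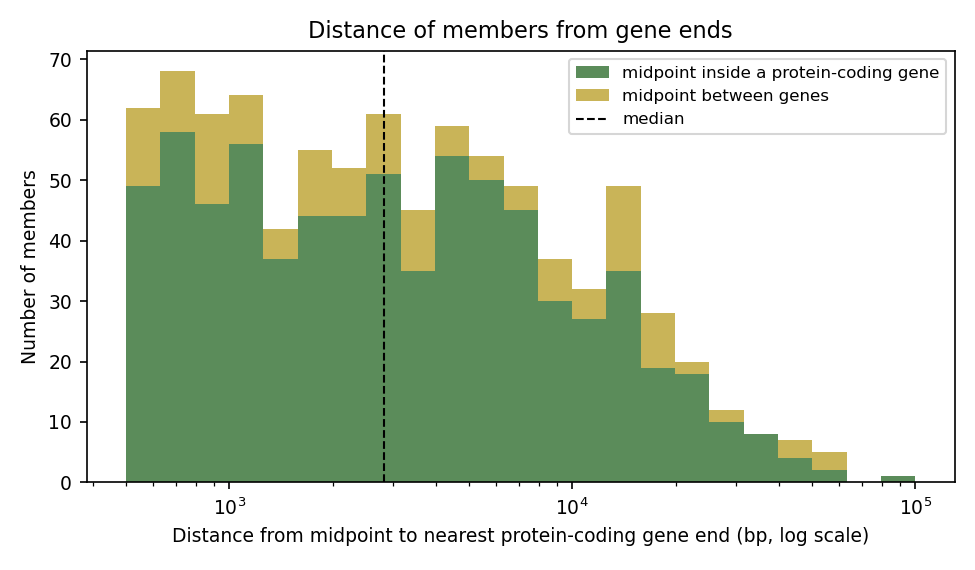
Number of members by the distance of their midpoint from the nearest end of a protein-coding gene (bp, log scale), split into members inside genes and between genes. The dashed line is the median, 2833 bp, and 723 of the 871 members are inside genes.

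The median member was 2833 bp from the nearest gene end, with quartiles of 1104 and 7366.5 bp. Within 1000 bp there were 192 members, and 162 lay more than 10000 bp away. Level did not follow distance: the median of the mean CPM over the 6 libraries was 45.6 for members within 1000 bp, 51.7 from there to 2000 bp, 51.9 to 5000 bp, 54.1 to 10000 bp and 49.6 beyond. CPM here means counts per 1000000 counts on the 1944 regions of the table kept by a filter on low counts, mitochondrial ones included, after scaling between libraries. The share of members read in all 6 libraries stayed between 18.2% and 22.8% over those distances.

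Members just beyond 500 bp from a gene end and regions just within it were both read unevenly. At 502 bp, a member in eff (3R, 14740729 to 14740905), which encodes a ubiquitin-conjugating enzyme, had 16, 36 and 66 counts in switched and 39, 80 and 102 in control libraries. A second at 502 bp, in babos (2R, 22401479 to 22401634), had 0, 45 and 0 in switched and 0, 97 and 39 in control libraries. The next, at 504 bp in Trc8 (3R, 29499476 to 29499583), had 0, 42 and 10 in switched and 0, 14 and 0 in control libraries. Just inside 500 bp, and so outside the set, a region at Hrb98DE, an RNA-binding protein gene (3R, 28600262 to 28600404), had 0, 33 and 9 in switched and 28, 49 and 67 in control libraries. One at Yp1, a yolk protein gene (X, 10054946 to 10055053), had 0, 37 and 9 in switched and 1, 8 and 15 in control libraries. One in 5-HT1B, a serotonin receptor gene (2R, 19029442 to 19029582), had 22, 71 and 33 in switched and 17, 4 and 13 in control libraries. These values describe the edge of the set and were not tested against each other.

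The most remote members were each read in 3 or 4 of the 6 libraries. The farthest, 87342.5 bp from any gene end, was in bru3, which encodes an RNA-binding protein (3L, 13716004 to 13716111), and had 6, 26 and 0 counts in switched and 8, 0 and 0 in control libraries. A member between genes, 57623.5 bp from Or67d and inside a long non-coding RNA gene (3L, 10332194 to 10332301), had 0, 9 and 33 in switched and 0, 16 and 6 in control libraries. One in Sema1a, an axon guidance gene, near a tRNA gene (2L, 8619860 to 8620088), had 0, 77 and 0 in switched and 0, 57 and 99 in control libraries.

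Members were close in width and level to the regions found in this table alone at gene ends. The median member was 143 bp long (quartiles 108 and 214.5), against 134 bp at gene ends and 206 bp for regions shared with the table labelled fat body. The longest member was 1383 bp. The median of the mean CPM was 49.5 for members, 49.2 at gene ends and 60.6 for shared regions, and per 100 bp of region it was 34.9, 35.8 and 34.5. Reads in all 6 libraries were found at 179 members (20.6%), at 21.3% of gene-end regions and at 38.9% of shared regions. In the 4 deeper libraries, numbered 2 and 3, every library had reads at 64.9% of members, 72.4% of gene-end regions and 74.6% of shared regions. These differences were not tested, since the classes were formed from the same calls of regions.

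Fewest members were read in the shallow libraries. At least 1 read was found at 332, 776 and 694 members in switched libraries 1 to 3 and at 576, 813 and 754 in control libraries 1 to 3. Both libraries numbered 1 lacked reads at 194 members (22.3%). Switched replicate 1, with 4935 counts over all members, was the lowest of all. Control replicate 1, with 7994, was the next, and the others held 23514 to 50508.

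**Figure D2:**
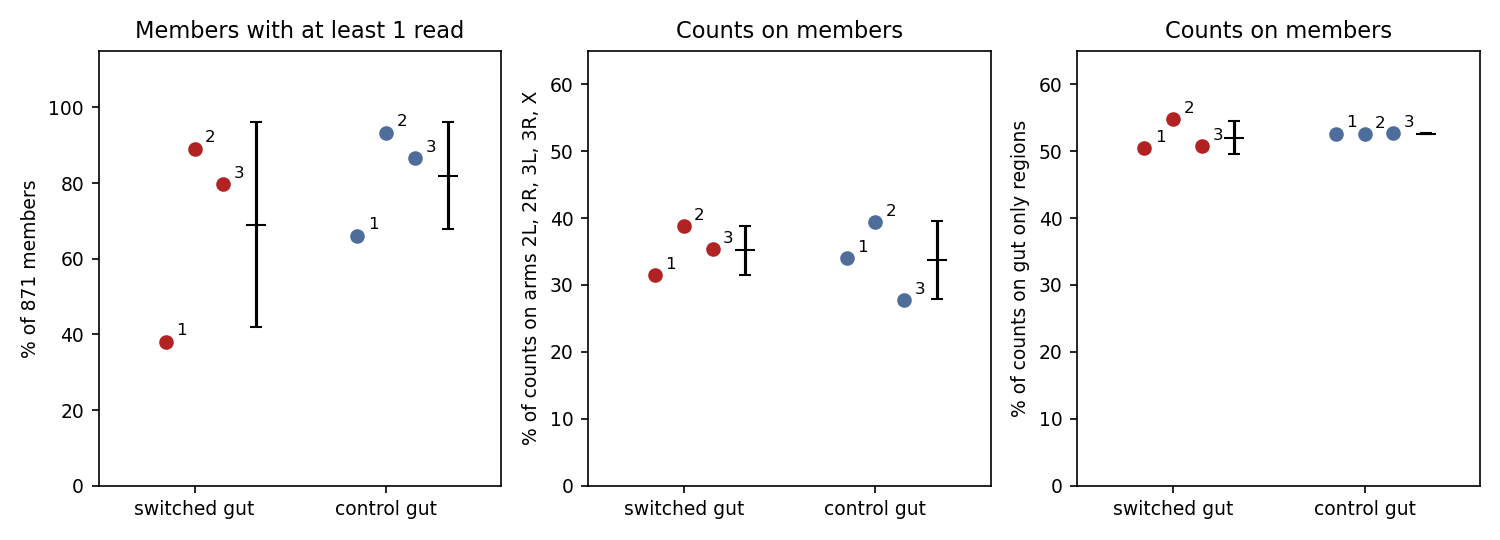
For each library labelled gut, from left to right, the percent of members with at least 1 read, the percent of counts on the 5 arms that fell on members, and the percent of counts on all regions found in this table alone that fell on members. Points are libraries with their replicate number, bars are the mean and SD of 3 libraries, and in the right panel all 6 libraries lie between 50.4% and 54.8%.

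Members held a similar part of the counts in both groups. They took 31.4%, 38.7% and 35.4% of arm counts in switched and 34.0%, 39.4% and 27.8% in control libraries, so that the groups overlapped. The mean was 35.2% ± 3.66 in switched and 33.8% ± 5.84 in control libraries (SD, n = 3 each), a difference of 1.43 percentage points. With single libraries left out it lay between -1.56, without control replicate 3, and 4.27, without control replicate 2. It was 3.30 without switched replicate 1 and -0.36 without switched replicate 2. Without the single 2R region described above, the means were 40.0% ± 4.06 in switched and 39.3% ± 2.82 in control libraries (SD, n = 3 each). Set against the counts of regions found in this table alone, members took 50.4%, 54.8% and 50.7% in switched and 52.6%, 52.6% and 52.7% in control libraries. Counts on the regions found here alone were thus split between gene ends and other positions in a like ratio in all 6 libraries.

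The ranking of members was most alike between the deeper libraries. Over the 871 members, Spearman's rho of counts was 0.56 between switched replicates 2 and 3 and 0.56 between control replicates 2 and 3. Across groups the same 4 libraries gave 0.39 to 0.55. Pairs with either library numbered 1 gave 0.12 to 0.33. At gene ends the corresponding values were 0.42 and 0.40 within groups and 0.26 to 0.36 across them. These are descriptions across regions, which share libraries and depth and are not independent.

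The highest members lay at Pepck1, for and Adh. The first by mean CPM, at Pepck1, which encodes the gluconeogenic enzyme phosphoenolpyruvate carboxykinase, and the overlapping CG45087 (2R, 18537112 to 18538494), had 73, 1650 and 854 counts in switched and 66, 1031 and 1486 in control libraries. Its mean CPM of 1919 was 3.74 times that of the next member. That next member, in for, the gene of a cGMP-dependent protein kinase with roles in foraging and fat metabolism (2L, 3639614 to 3640384), had 68, 451 and 168 counts in switched and 74, 252 and 233 in control libraries. The member that lies in Adh and Adhr, nested in osp (2L, 14616178 to 14616862), had 22, 334 and 233 in switched and 41, 208 and 431 in control libraries. Adh encodes alcohol dehydrogenase, an abundant enzyme of the adult fat body and gut. Groups overlapped at all 3.

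Others among the 10 highest were a member in Root, whose product builds ciliary rootlets (3R, 24116734 to 24117358; mean CPM 426.0), and one in corto, a chromatin factor gene (3R, 5081681 to 5082163; 328.1). A member in dop, a kinase gene (3L, 15566524 to 15566895), had a mean CPM of 309.4, and one in Obp99c, an odorant-binding protein gene (3R, 29686691 to 29687022), had 307.1. The remaining 3 were in CG13868 (2R, 20311732 to 20312224; 363.3), 2191.5 bp from CG10939 and near a tRNA gene (2R, 17392118 to 17392685; 314.8) and 920.5 bp from CG34039 (3L, 14558788 to 14559371; 309.3). The 10 highest together held 8.92% of all counts on members. Over all members the mean CPM had a median of 49.5 and quartiles of 31.1 and 86.5.

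The members with the highest smallest count over the 6 libraries had at least 25 counts in each. In Indy, which encodes a citrate transporter whose loss is known to lengthen fly life, a member (3L, 18835141 to 18835258) had 51, 46 and 53 counts in switched and 30, 26 and 34 in control libraries. In CPM these were 295.2, 71.5 and 145.2 in switched and 172.9, 52.7 and 85.1 in control libraries, with the replicate 1 library highest in each group. A member in BNIP3, a mitophagy receptor gene (3L, 20516696 to 20517029), had 46, 168 and 67 in switched and 27, 49 and 133 in control libraries. One in Sin3A, the scaffold of a histone deacetylase complex (2R, 12588259 to 12588452), had 25, 172 and 28 in switched and 32, 86 and 71 in control libraries. One in Tlk, a chromatin assembly kinase gene (X, 3742648 to 3743122), had 50, 194 and 100 in switched and 40, 152 and 66 in control libraries. The rest of the 10 members with the highest smallest count were those at Pepck1, for, Root and CG10939, one in hts, the adducin gene, near tRNA and snoRNA genes (2R, 19414468 to 19414912), and one in nebu (3L, 12837489 to 12837937).

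Host genes were long. The 723 members inside genes lay in 602 genes, 467 with 1 member and 135 with 2 or more. The median host gene was 12788.5 bp long, against 2783 bp for the 11154 genes on the 5 arms long enough to hold a member. It had 4 RefSeq transcripts, against 2. Of 999 genes over 20 kb, 202 (20.2%) held a member, and they were 33.6% of the hosts. A long gene offers more sequence beyond 500 bp of its ends, and the choice of members therefore favours it. Of the 602 hosts, 114 (18.9%) also had a region of this table at an end, and 150 (24.9%) held a region of the table labelled fat body elsewhere in their span.

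The ecdysone receptor gene held the most members, 5 of them near tRNA genes. Ecdysone is the steroid hormone of insects, EcR is its receptor, and the early genes Eip74EF and Eip75B encode an ETS factor and a nuclear receptor that it induces. EcR held 8 members spread over 50.8 kb, and the same gene held 4 regions labelled fat body. Eip74EF and Eip75B held 5 members each. The 5 members in Glut4EF, a transcription factor gene, lie also in CG46467, which overlaps it. The clock genes vri and Pdp1, which encode bZIP factors with opposite actions on Clock transcription, held 4 each. NFAT, shn and ATP8A, genes of a calcium-responsive factor, of a zinc finger protein of Dpp signalling and of a phospholipid flippase, also held 4. All 4 in ATP8A lay within 500 bp of an end of a tRNA gene, in a cluster of tRNA:Ile-AAT genes. The genes bun and CG32816 also held 4 members each, 0 of them near tRNA genes, and ranked below the others with 4 because they are longer.

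**Figure D3:**
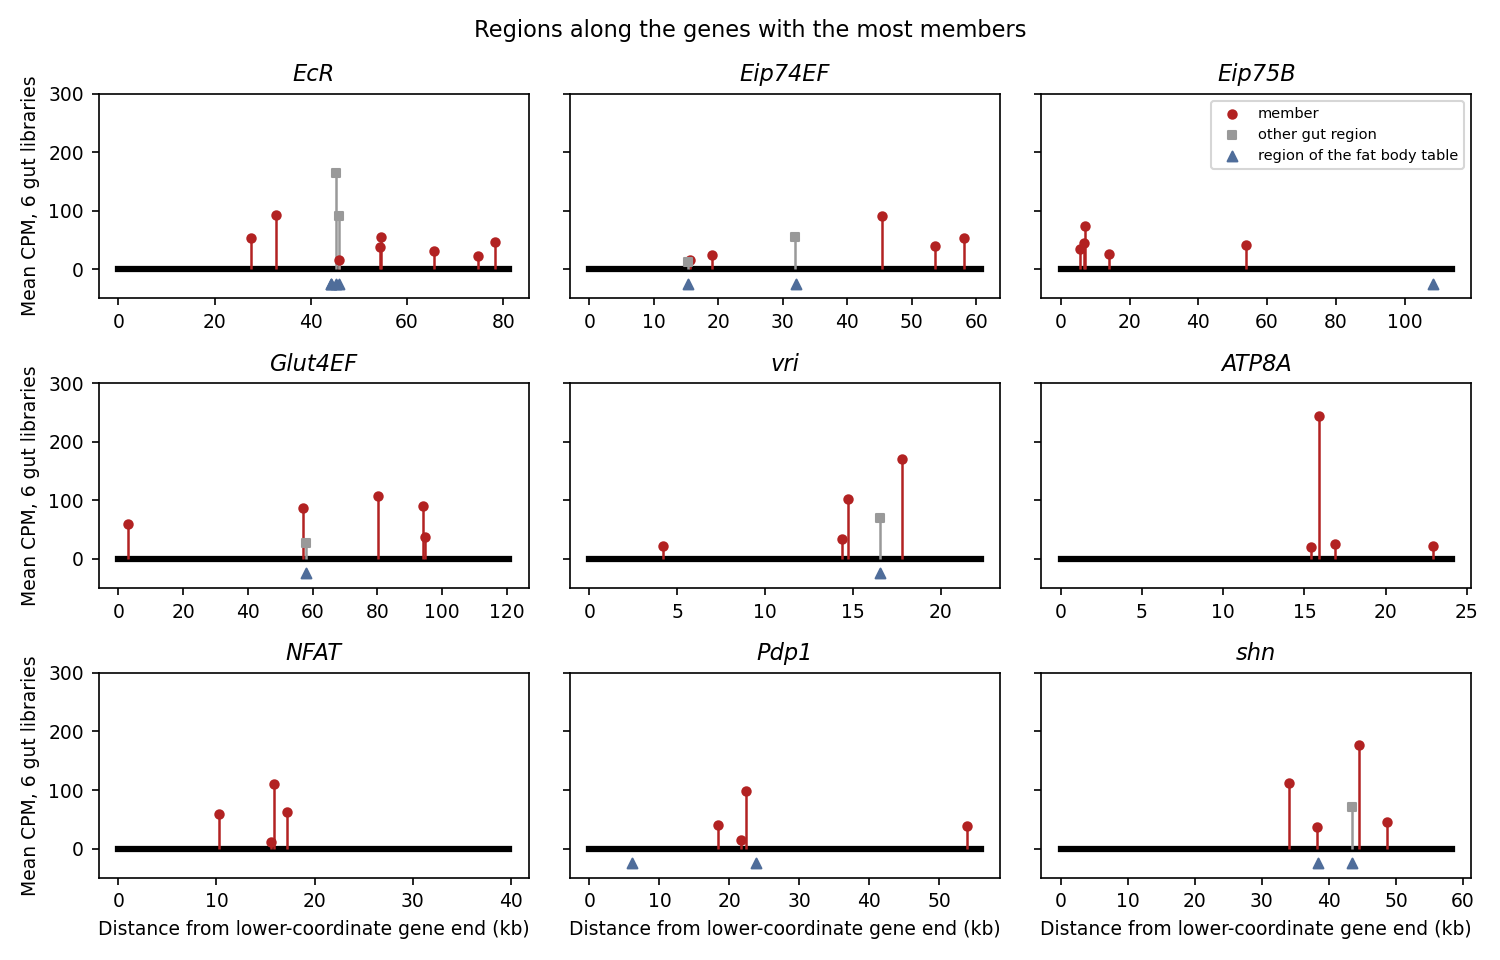
Position of regions along the genes with the most members, in kb from the gene's lower-coordinate end, against the mean CPM of the 6 libraries labelled gut. Red points are members, grey squares other regions of the same table and blue triangles those labelled fat body. EcR members are spread along the gene, while those of ATP8A and NFAT are gathered in part of it.

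Along EcR, the highest member (2R, 6120645 to 6120819) had 0, 91 and 69 counts in switched and 16, 30 and 29 in control libraries. A pair 45 bp apart, whose midpoints lie in the genes of tRNA:Arg-ACG-1-1 and tRNA:Lys-CTT-1-1 (2R, 6142118 to 6142265 and 6142311 to 6142525) had 0, 41 and 7 and 0, 69 and 18 in switched, and 4, 29 and 23 and 7, 53 and 11 in control libraries. Switched replicate 1 had 0 counts at each of the 8 members. Summed over them, EcR had 0, 463.4 and 383.4 CPM in switched and 357.3, 328.1 and 585.6 CPM in control libraries. Of the 7 members that passed the filter on low counts, 1 had a log2 fold change above 0 and 6 below, and 0 were called. The lowest log2 fold change, -4.28 ± 1.94 (SE), was at a member near tRNA genes (2R, 6162494 to 6162592). It had 0, 3 and 0 counts in switched and 10, 24 and 10 in control libraries. The groups did not overlap there in CPM, and its edgeR adjusted p was near 1.

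At Eip74EF, 3 of the 4 tested members had a log2 fold change above 0, 1 below, and 0 were called. Its highest member (3L, 17603845 to 17604096) had 31, 80 and 38 counts in switched and 12, 32 and 3 in control libraries, a log2 fold change of 1.53 ± 1.35 (SE). The sum over its 5 members was 248.9, 384.1 and 265.7 CPM in switched and 97.98, 176.2 and 165.2 CPM in control libraries, so the groups did not overlap. NFAT had 329.9, 328.1 and 312.2 CPM in switched and 0, 186.3 and 302.8 CPM in control libraries, and did not overlap either. These were 2 of the 10 genes with most members in that direction, and 0 of the 10 had all switched below all control libraries. The 10 include both Glut4EF and CG46467, which share their members. Among all 602 hosts, 467 of them with 1 member, the sums of the groups did not overlap in 3.82% upward and 9.14% downward. Eip75B, at 92.6, 441.6 and 150.6 CPM in switched and 69.2, 194.4 and 372.9 CPM in control libraries, overlapped. So did Pdp1, at 225.7, 211.5 and 232.8 CPM in switched and 247.8, 176.2 and 57.6 CPM in control libraries.

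Whether past foxo induction changed accessibility at the members was tested in the fit over the whole table. The filter on low counts kept 700 members and 1944 regions in all, and the other 171 members entered no edgeR test with this filter. By edgeR's quasi-likelihood test with Benjamini-Hochberg adjustment, 0 members passed an adjusted p of 0.05, as did 0% of the 1944 tested regions, and the smallest adjusted p was 0.855. DESeq2 called 0 of its 2896 regions with a defined adjusted p, the smallest being 0.193. At an unadjusted p under 0.05, edgeR gave 5 members higher and 12 lower in switched libraries. That is 0.714% and 1.71% of tested members, against 0.412% and 1.18% of all tested regions. DESeq2, run without that filter, gave 16 members higher and 61 lower at that unadjusted p. That is 1.84% and 7.02% of members with a defined p, against 1.21% and 4.04% of all such regions.

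**Figure D4:**
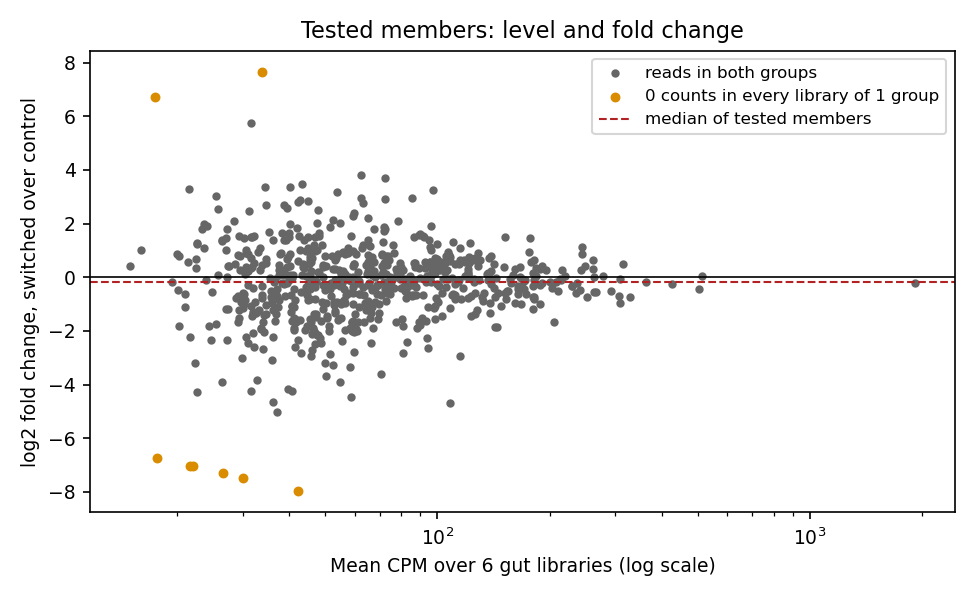
Fitted log2 fold change of switched over control against mean CPM (log scale) for the 700 tested members. The dashed line is the median of -0.16, and orange points had 0 counts in every library of 1 group, where the fitted value depends on the prior count.

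Fold changes were spread around a value near 0. The median log2 fold change was -0.16 over tested members and -0.23 over all tested regions, and 307 members lay above 0 and 393 below. The member median was 0.14 without switched replicate 1 and 0.06 without control replicate 2, so its sign rested on single libraries. Members above 0 were 43.9%, against 40.9% of all tested regions. In CPM, all switched lay above all control libraries at 26 members (3.71%), against 3.65% of all tested regions. They lay below all of them at 52 (7.43%), against 7.15%. At the 10 highest members the log2 fold changes lay between -0.94 and 0.51. Among 74 pairs of neighbouring tested members under 1000 bp apart, 29 (39.2%) had fold changes of the same sign. Among 505 pairs 20000 bp or more apart, 265 (52.5%) did. Among 116 pairs at gaps between these, 63 (54.3%) did. These shares were not tested.

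The 5 members with the smallest p that were higher in switched libraries had counts in each switched library. A member in Con, which encodes the cell adhesion protein Connectin (3L, 4969213 to 4969320), had 17, 18 and 28 counts in switched and 0 in each control library. Taking 3 counts over the 3 control libraries as the floor, it was at least 19.1-fold higher. One in Osi7, of the Osiris family of membrane proteins (3R, 6249804 to 6249951), had 8, 18 and 11 in switched and 0 in each control library, at least 11.2-fold higher. Neither bound includes the spread between libraries. One in ken, the gene of a BTB zinc finger repressor (2R, 23872280 to 23872451), had 6, 75 and 13 in switched and 0, 1 and 0 in control libraries. The ratio of 85.4, from pooled counts, had a 95% counting interval from 14.96 to 3410. The fitted log2 fold change was 5.76 ± 2.25 (SE). One in Dys, the dystrophin gene (3R, 19472234 to 19472374), had 26, 78 and 49 in switched and 0, 14 and 0 in control libraries, a log2 fold change of 3.69 ± 1.78 (SE) that was 8.54 without control replicate 2. One in CG5958 (2L, 7432427 to 7432599) had 36, 65 and 81 in switched and 0, 21 and 4 in control libraries, at 3.24 ± 1.46, and 4.82 without control replicate 2. The edgeR adjusted p was 0.855 for Osi7, 0.865 for Con and near 1 for the other 3, so none passed the test.

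**Figure D5:**
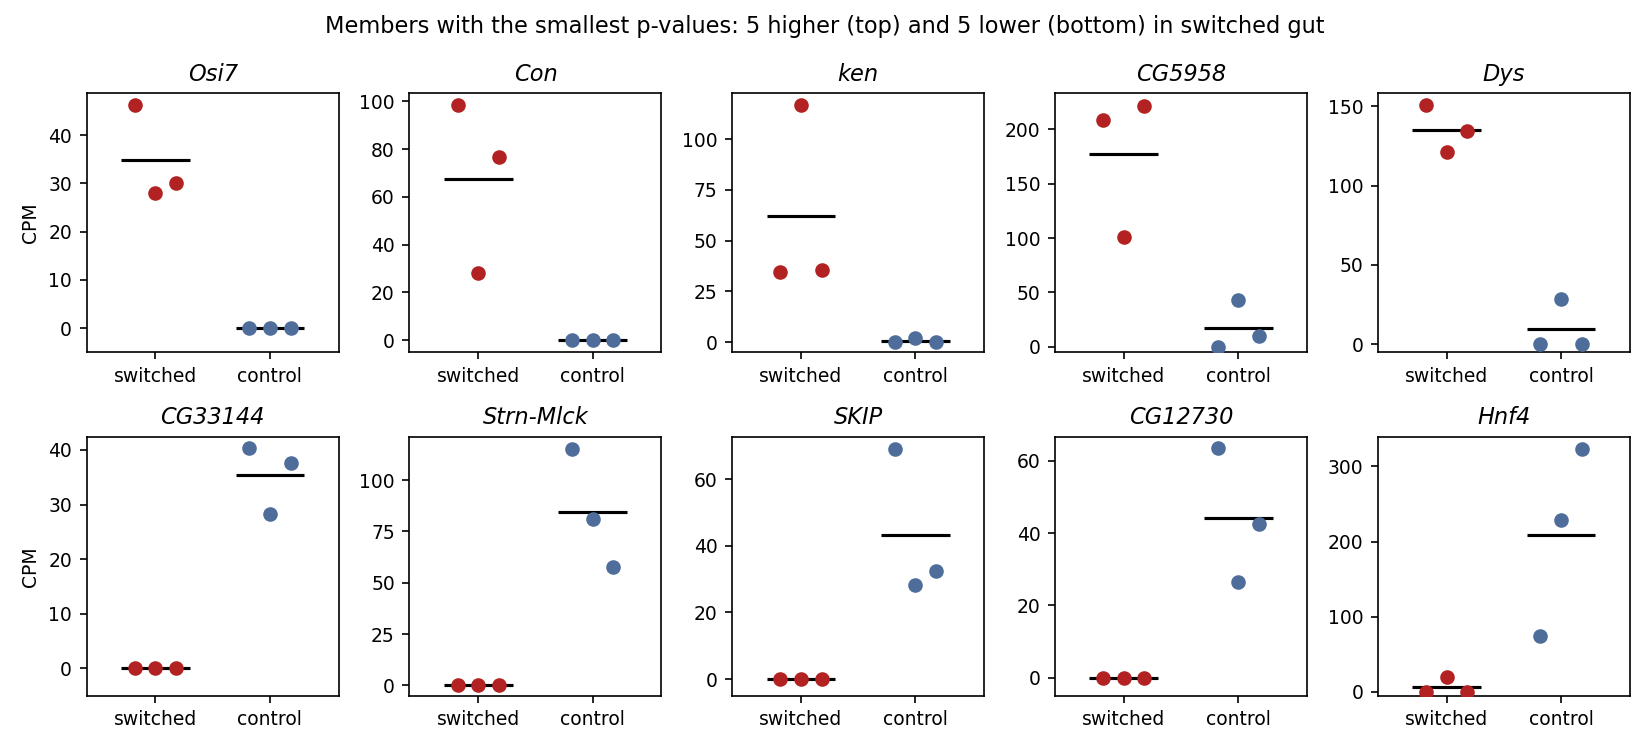
CPM in each library labelled gut at the 5 members higher (top row) and the 5 lower (bottom row) in switched libraries with the smallest unadjusted p. Points are replicates 1 to 3 from left to right and lines are means of 3 libraries. The groups do not overlap at any of the 10, which were picked for that difference.

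The 5 lower members with the smallest p were read in all control libraries. A member in Hnf4, the gene of a nuclear receptor that directs fat catabolism and glucose balance in flies (2L, 8700771 to 8700969), had 0, 13 and 0 counts in switched and 13, 113 and 129 in control libraries. Its mean was 6.74 ± 11.7 CPM in switched and 208.9 ± 125.2 CPM in control libraries (SD, n = 3 each), a log2 fold change of -4.70 ± 1.55 (SE). Without switched replicate 2, the one switched library with reads there, it was -9.09, a fitted value that depends on the prior count. A member in Strn-Mlck, which encodes a titin-like muscle kinase (2R, 15952204 to 15952362), had 0 in each switched and 20, 40 and 23 in control libraries, at least 30.4-fold lower. Members in CG12730 and an antisense RNA gene (X, 5517379 to 5517460), SKIP, a potassium channel interacting protein gene (3R, 22267291 to 22267381), and CG33144 (2R, 10755587 to 10755668) were likewise at 0 in switched libraries. Their bounds were at least 15.04-fold, 14.3-fold and 13.2-fold lower. All 5 had an edgeR adjusted p of 0.855 and did not pass the test.

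Hnf4 held 3 members, and the other 2 had other values. One that ended 622 bp before the first (2L, 8699720 to 8700148) had 0, 231 and 61 counts in switched and 24, 148 and 73 in control libraries, a log2 fold change of -0.23 ± 1.17 (SE). The other (2L, 8694236 to 8694457) had 27, 109 and 25 in switched and 4, 14 and 51 in control libraries, at 1.12 ± 1.30. The difference between these sites was not tested. When both shallow libraries were left out, an alternative chosen after seeing the data, DESeq2 called the first Hnf4 member (adjusted p = 0.0405) and a member in Ac13E, an adenylyl cyclase gene (X, 15545712 to 15545793; adjusted p = 0.0165). The Ac13E member had 0 in each switched and 0, 41 and 76 counts in control libraries. edgeR on the same 4 libraries called 0.

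Hormone receptor and ecdysone genes held the most members of the 18 gene lists, which were chosen with earlier results of these data known. Of 19 such genes 9 held 31 members, of which 28 were tested, 0 called, 8 above 0 and 20 below. The list median was -0.28, against -0.23 for all tested regions, of which 40.9% lay above 0. The ranking of lists made no allowance for gene length. EcR, Eip74EF and Eip75B, at 81215, 60654 and 113744 bp, held 8, 5 and 5 of the members. Besides these genes and Hnf4, members lay at ERR, the estrogen-related receptor gene, and svp, the COUP-TF homologue. The rest were at br and Eip93F, which specify stages of metamorphosis, and Hr4. At svp, a member 579 bp from a gene end (3R, 12259082 to 12259550) had 13, 117 and 50 counts in switched and 30, 102 and 125 in control libraries. At br, 2 members 241 bp apart had 0, 23 and 40 and 9, 54 and 42 counts in switched, and 2, 39 and 37 and 33, 50 and 45 in control libraries. Summed over the list, members had 781.4, 2842.5 and 1818.6 CPM in switched and 1440.8, 2337.2 and 2935.6 CPM in control libraries.

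Lipid genes held 12 members at 10 of 21 genes on the arms, all tested, with 0 called, 6 above 0 and 6 below. FASN1 and FASN2 encode fatty acid synthases, ACC the enzyme before them, bmm the adipose triglyceride lipase, and Lsd-1 and Lsd-2 the perilipins of lipid droplets. A member in FASN1 (2L, 3060344 to 3060541) had 0, 85 and 98 counts in switched and 39, 101 and 101 in control libraries. One in ACC (2R, 7987154 to 7987467) had 14, 117 and 63 in switched and 34, 72 and 85 in control libraries. One in bmm (3L, 14782749 to 14782955) had 19, 148 and 0 in switched and 3, 33 and 3 in control libraries, a log2 fold change of 1.87 ± 1.71 (SE). The list summed to 584.6, 1747.8 and 1295.5 CPM in switched and 587.9, 1385.3 and 1596.7 CPM in control libraries, and the groups overlapped.

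The insulin and FOXO list held 6 members at 5 of 21 genes on the arms, with 5 tested, 0 called, 2 above 0 and 3 below. The member in foxo itself (3R, 14062292 to 14062415) had 0, 26 and 47 counts in switched and 9, 53 and 16 in control libraries. One in InR, the insulin receptor gene (3R, 21580230 to 21580345), had 7, 41 and 7 in switched and 0, 0 and 24 in control libraries. A member in sgg, the GSK-3 kinase gene (X, 2653803 to 2654010), had 0, 106 and 80 in switched and 3, 16 and 0 in control libraries, at a log2 fold change of 2.93 ± 1.82 (SE). The other sgg member (X, 2662493 to 2662798) had 0, 99 and 17 in switched and 0, 135 and 69 in control libraries, at -1.13 ± 1.49. Pdk1 and ImpL2 held 1 member each.

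A list of transcription factor genes, mostly of the BTB and zinc finger kind, held 17 members at 11 of 25 genes on the arms, with 16 tested, 0 called, 7 above 0 and 9 below. In luna, a Krüppel-like factor gene, a member (2R, 11104588 to 11105075) had 1, 384 and 43 counts in switched and 6, 217 and 223 in control libraries. In kay, the fly Fos gene, the highest of 3 members (3R, 29782636 to 29782906) had 25, 136 and 13 in switched and 8, 50 and 51 in control libraries. The bZIP genes kay and Atf3 and the ETS gene aop held 5 of the 17. In psq, a member (2R, 10602122 to 10602326) had 14, 28 and 23 in switched and 3, 1 and 0 in control libraries. The groups did not overlap at that psq member, and its log2 fold change of 3.38 ± 2.05 (SE) had an edgeR adjusted p near 1. Among all tested regions, 3.65% had all switched above all control libraries and 7.15% had all below.

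Other lists were thinner, and 0 members of any were called. Cell adhesion and guidance genes held 9 members at 9 of 34 genes, with 4 of 7 tested above 0. Members in genes of Notch, Wnt, Hedgehog, Dpp and EGF signalling numbered 8, at tkv, bun and Egfr, with 5 of 6 tested above 0. Chromatin remodeller genes held 6 at osa, Mi-2, Acf and e(y)3, with 3 of 5 tested above 0. The highest of these, in osa, a subunit gene of the Brahma complex (3R, 17700744 to 17701314), had 14, 152 and 121 counts in switched and 42, 223 and 103 in control libraries. Immune genes held 4, at Dif, cact and Tl of the Toll pathway, with 2 of 3 tested above 0. Stress and detoxification genes held 3, at Cat, GstS1 and cnc, with 1 of 3 above 0.

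Markers of several cell types were present among the members. Of the gut markers, those of enterocytes and regional identity held 0 members and those of stem and enteroendocrine cells held 1. Malpighian tubule markers held 0. Fat body markers held 4 members, 1 at Yp1 and 3 at srp, the GATA factor gene of fat body and blood cells. The Yp1 member, which also lies in an antisense RNA gene (X, 10054439 to 10054925) had 7, 70 and 53 counts in switched and 43, 138 and 165 in control libraries, a log2 fold change of -1.66 ± 0.97 (SE). A member in srp (3R, 15993380 to 15993468) had 0, 4 and 0 in switched and 12, 17 and 43 in control libraries, at -4.64 ± 2.12. In CPM, all switched lay below all control libraries at both, and both had an edgeR adjusted p near 1. Summed over the 4, fat body markers had 40.5 to 340.5 CPM in switched and 317.0 to 613.2 CPM in control libraries, with 2 of 4 tested above 0. Oenocyte markers held 7 members, at Cyp4g1, Cpr, Desat1 and svp, with 295.2 to 1279 CPM in switched and 449.5 to 1639 CPM in control libraries and 1 of 7 tested above 0. Cyp4g1, the cytochrome P450 gene of cuticular hydrocarbon synthesis, held 3 members within its 2279 bp, the highest (X, 467645 to 468021) with 0, 140 and 88 counts in switched and 24, 84 and 69 in control libraries. Haemocyte markers held 4, of which 3 are the srp members and 1 lies in vkg, a collagen gene, with 2 of 4 tested above 0. Muscle markers held 3, ovary markers 2, both at vas, and neurone markers and stem cell and enteroendocrine markers 1 each, at Rdl and ttk. The part of these cell types in the values of the members was not tested, and fewer cells of a type cannot be told apart from less accessible DNA per cell in bulk samples.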

How the data were processed

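The authors deposited unnormalised counts of reads in each region, with 1 table for each tissue. Per the submitters' processing notes, FastQC, Trimmomatic, MACS2, DESeq2 and featureCounts were used. The aligner, duplicate removal, a Tn5 offset and pooling for peak calling are details that the labels do not give. Remaining duplicates would widen the spread between libraries. The build is not named, and Release 6 was settled from the data: 44.7% of 2275 arm regions labelled gut fell within 500 bp of a protein-coding gene end, against 19.0% to 21.8% after moving them by 5000 or 10000 bp. Gene spans came from the RefSeq table of that release, with 13962 protein-coding genes and no exons, strands or sequence used here. Coordinates are those deposited.

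Columns were matched to samples by title. Members were found by the rule given in the report, with 1 bp as the overlap minimum. All 2906 regions were fitted in R 4.3.3 with edgeR 4.0.16 (TMM factors, quasi-likelihood F test for switched over control, Benjamini-Hochberg adjusted p under 0.05 over the tested regions) after filterByExpr, set at 10 counts as minimum and 15 in total. The common dispersion was 1.38. The script was tested on simulated data. The standard error is the log2 fold change over the square root of F. DESeq2 1.42.0 was the alternative test. CPM was computed for all regions of the table, with library totals and TMM factors taken from the regions kept by the filter. Lower bounds of folds use a floor of 3 counts over the group at 0, and counting intervals are exact (Clopper-Pearson, 95%). Neither includes the spread between libraries, and PCR copies, which are not separate molecules, would make both too tight.

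Pairing of libraries by replicate number passed the bound of 0.1. The correlations of deviations from the group mean between same-numbered switched and control libraries were 0.259, 0.190 and 0.108. Switched replicate 2 with control replicate 3 gave 0.109, and no label states what the numbers stand for. The main fit held group as its only term, so its p-values, standard errors and fold changes are unpaired. With the replicate block, run as an alternative, the median log2 fold change of tested members was -0.40, against -0.16. The members and gene lists were chosen with earlier results of these data known. Named regions were, by rule, the 5 higher and 5 lower tested members of smallest p, the 10 of highest mean CPM, the 10 of highest smallest count, members of the 10 genes holding most, members at listed genes, those nearest to and farthest from gene ends, and called members. No sequence was used here. The alternatives tried were DESeq2, other scalings, no filter on low counts, arm regions only, the replicate block, each library left out, other distances and other denominators. No column of the tables was left without a sample.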

Additional observations from a re-analysis of the deposited data

How the results depend on the processing

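The count of 0 called members held under DESeq2, DESeq2 size factors, library totals alone, no filter on low counts, arm regions only, the replicate block, leaving out each library in turn (0 to 0) and leaving out both libraries numbered 1. DESeq2 without both libraries numbered 1 called 2 members and 3 of all regions, which were 0 and 0 with all libraries, and the cause was not tested. The replicate block changed no call, and with it the median log2 fold change of tested members was -0.40. That median was -0.16 as reported and had no stable sign: it was -0.62 without switched replicate 2 and 0.14 without switched replicate 1, the range over single libraries left out, -0.23 under scaling by library totals, and 0.06 when control replicate 2 was left out. The difference in the share of arm counts on members, 1.43 percentage points as reported, ranged from -1.56 without control replicate 3 to 4.27 without control replicate 2, and was -0.36 without switched replicate 2 and -0.64 against counts of the regions found in this table alone. Without the 2R region of most arm counts, an alternative added after seeing the data, it was 0.73. The number of members was 1058 at 250 bp from gene ends and 679 at 1000 bp, 840 when regions within 200 bp of the other table counted as shared, and 179 with reads in all 6 libraries required. With single libraries left out, the log2 fold change lay between 4.82 and 7.47 at ken, 2.71 and 4.82 at CG5958, 3.08 and 8.54 at Dys and -9.09 and -4.15 at Hnf4. The other 6 members named for their p have 0 counts in 1 group, which fixes their sign. Depth limits single sites: the libraries numbered 1 held 99191 and 111244 counts, and the filter left 171 members out of the edgeR fit, while DESeq2 and edgeR without the filter fitted them too.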
